A study of Rattus norvegicus with 4 samples.

Results

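Heat shock proteins are the chaperones that bind unfolded polypeptides in the cytosol, nucleus and mitochondria, together with the J-domain (Dnaj) co-chaperones that deliver clients to HSP70 and the heat shock factors (Hsf) that switch on their transcription under stress. The genes described here are those with an array annotation symbol that begins with Hsp90a, Hspa, Hspb and a digit, Hspd, Hspe, Hsph, Hsf and a digit, or Dnaj, without Hspa5, Hsp90b1 and Dnajb9 of the endoplasmic reticulum. This rule found 78 of the 33849 gene probes. Of these, 61 probes were kept, as they were not flagged as near background or masked on both arrays of at least 1 group, against 18664 kept probes in all. The kept probes stand for 46 of the 57 heat shock genes with a probe of their own, and 2 further kept probes are annotated with more than 1 gene. The rule also takes J proteins of the endoplasmic reticulum such as Dnajb11 and Dnajc3, so the set is not purely cytosolic and mitochondrial.

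The samples are livers of 4 male Otsuka Long-Evans Tokushima Fatty (OLETF) rats, a strain that overeats, grows obese and becomes diabetic with age. In the thiamine group, 2 rats had drunk water with 0.2% thiamine (vitamin B1, 2 g per L) for 51 weeks, and in the untreated group 2 rats had drunk water without it. All were 55 weeks old, had fasted for 16 h, and came from groups of 8 housed 2 to a cage. Every rat carries the obese strain background and no lean strain was analysed here. RNA of each liver was put on its own 1-colour CodeLink array, without pooling, and the comparison asks what long thiamine intake does to liver gene expression in this strain.

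HSP70 proteins bind and release clients in an ATP cycle that J proteins start and that exchange factors reset, HSP90 completes the folding of signalling proteins, small heat shock proteins hold unfolded clients without ATP, and HSP60 with HSP10 forms the folding chamber of mitochondria. Hsf1 binds heat shock elements, inverted repeats of nGAAn, and raises Hspa1a, Hspa1b, Hspb1, Dnajb1 and Hsph1 under heat or misfolding. The constitutive Hspa8 and Hsp90ab1 serve the unstressed hepatocyte, which makes and exports large amounts of protein.

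Hspb1 and the probe annotated with both Hspa1b and Hspa1a had the largest differences of the heat shock probes kept. Both stand for inducible heat shock proteins and were higher in the thiamine livers. The shared probe, however, was kept through the thiamine arrays alone, where it was high, so its difference is only described. The other 45 genes ran from -0.65 to 0.42. No probe of the series passed the test (limma, Benjamini-Hochberg adjustment over all 18664 kept probes, adjusted p under 0.05), which is 0% of the background, so all differences below are measured values and not called changes. All differences are thiamine minus untreated on the log2 scale of normalized intensity, with limma's moderated SE and n = 2 rats per group. With 2 rats per group the median 95% interval of a heat shock gene reached 0.41 to either side, so a difference smaller than this could not be told from 0.

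Hspb1 (Hsp25 or Hsp27, a small heat shock protein that holds unfolded clients and binds actin) had log2 intensities of 11.82 and 12.56 in thiamine rats 1 and 2, against 11.34 and 11.03 in untreated rats 1 and 2. Both thiamine livers lay above both untreated livers, and thiamine rat 2 stood highest. The means were 12.19 ± 0.53 and 11.19 ± 0.21 (SD, n = 2 each), a difference of 1.003 ± 0.25 or 2.00-fold, with a 95% interval of 0.46 to 1.55 and an adjusted p of 0.27 by limma (unadjusted p = 0.0019). By unadjusted p it ranked 132 among all kept probes. The size depended on thiamine rat 2: with only thiamine rat 1 kept in its group the difference was 0.63, and with only thiamine rat 2 it was 1.38.

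The gene of Hspb1 lies on chromosome 12, and the 250 bases before its start (GRCr8, chr12:26432302-26432551, minus strand, RefSeq) are printed because this is the gene whose difference stands out. Capitals mark the cores of heat shock elements, searched as GAANNTTC and TTCNNGAA, each of which reads the same on both strands.

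Hspb1: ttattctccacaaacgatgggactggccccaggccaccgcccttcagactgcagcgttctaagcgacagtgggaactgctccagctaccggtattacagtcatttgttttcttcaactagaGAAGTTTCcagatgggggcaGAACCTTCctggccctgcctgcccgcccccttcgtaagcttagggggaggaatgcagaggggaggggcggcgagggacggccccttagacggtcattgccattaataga

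The Hspb1 window held 2 matches, which begin 129 and 109 bases before the start.

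The inducible HSP70 proteins are encoded by near-identical neighbouring genes, Hspa1a and Hspa1b, and the array annotation gives their probe to both. It cannot tell the copies apart, so it is not counted among the 46 genes and no value is given for either gene alone. This probe read 8.88 and 9.45 in thiamine rats 1 and 2, against 7.87 and 7.60 in untreated rats 1 and 2. Here too both thiamine livers exceeded both untreated ones, with thiamine rat 2 the highest and untreated rat 2 the lowest. The difference was 1.43 ± 0.22 (2.69-fold, 95% interval 0.94 to 1.92, limma adjusted p = 0.22, unadjusted p = 5.3e-05). The spot of untreated rat 1 was flagged as contaminated and near background, so 1 of 2 untreated arrays measured it. The probe was therefore kept through the thiamine arrays alone, where it was high, and its fold and p describe it without supporting a difference. With flagged spots set to missing the difference was 1.56, and without thiamine rat 2 it was 1.14.

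**Figure D1:**
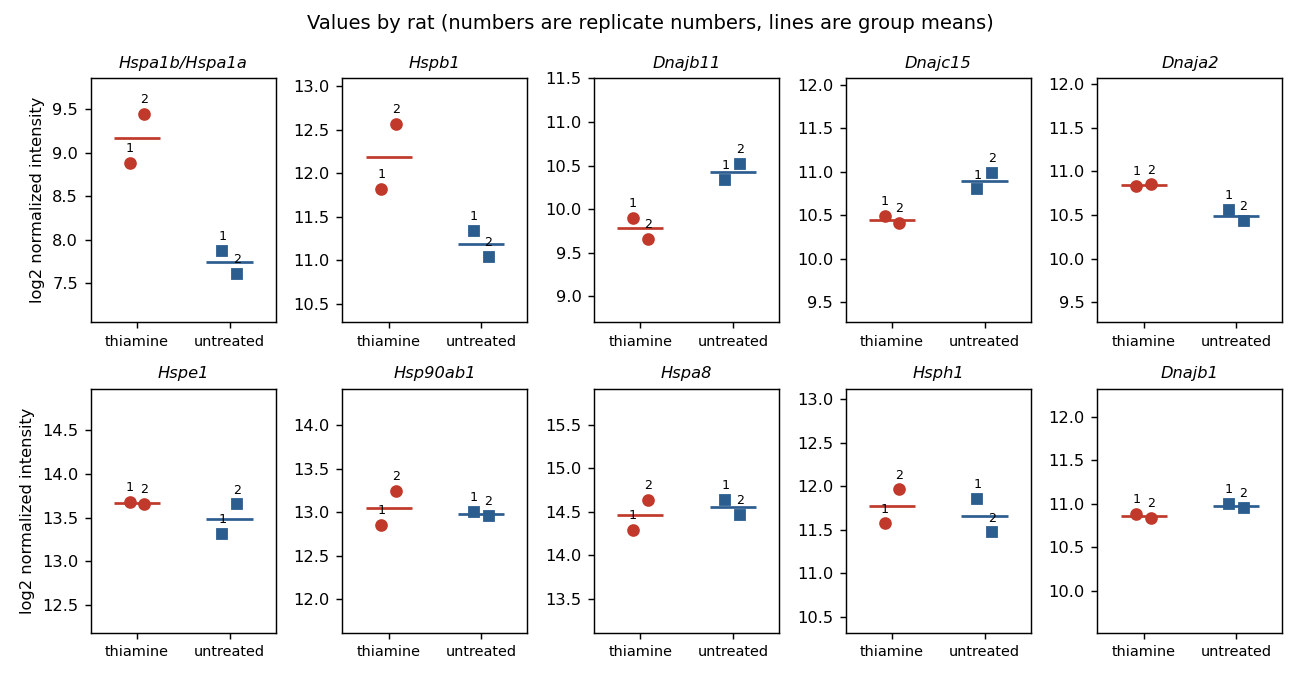
Log2 normalized intensity (y axis) of 10 heat shock probes in the thiamine livers (red circles) and untreated livers (blue squares), with replicate numbers beside the points and lines at the group means; every panel spans the same log2 range but has its own offset, since levels of different probes cannot be compared. The Hspa1b/Hspa1a probe and Hspb1 have thiamine rat 2 on top and no overlap between groups, and Hsp90ab1, Hspa8 and Hsph1 overlap.

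The remaining small heat shock proteins lay between -0.01 and 0.30. Hspb9, known mainly from testis, read 8.09 and 8.40 in thiamine rats 1 and 2 and 7.81 and 8.09 in untreated rats 1 and 2, a difference of 0.30 ± 0.20, or 0.16 without untreated rat 1 and 0.15 without thiamine rat 2. Hspb6 (Hsp20, a muscle small heat shock protein) was at 0.11 ± 0.18. Hspb8, which works with Bag3 in the removal of misfolded proteins, was at 0.02 ± 0.23, and its second kept probe at 0.30 ± 0.23. Hspb3, known from muscle, was at -0.01 ± 0.29 and had an untreated pair of 11.80 and 10.91, a wider gap between untreated rats than any other of the 46 genes. Hspb2 and Hspb7, muscle members, were near background on all 4 arrays and give no difference.

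The HSP70 relatives other than the shared probe lay within 0.20 of no difference on their brightest probes. Hspa8 (Hsc70, the constitutive cytosolic HSP70) read 14.29 and 14.64 in thiamine rats 1 and 2, against 14.64 and 14.47 in untreated rats 1 and 2, a difference of -0.09 ± 0.20. The groups overlap, and the 95% interval of -0.52 to 0.34 does not contain a 2-fold change. The exchange factors Hspa4 and Hspa4l were at -0.19 ± 0.19 (-0.015 without untreated rat 1) and 0.10 ± 0.18, the ribosome-bound Hspa14 at 0.10 ± 0.20, and Hspa13, an HSP70 relative of microsomes, at -0.03 ± 0.18. The distant relatives Hspa12a and Hspa12b were at -0.18 ± 0.18 and 0.04 ± 0.18, Hspa12b being above background in 1 of 2 untreated livers. A second kept probe of Hspa13 was at 0.06 ± 0.19. That of Hspa12a, above background in 1 of 2 thiamine livers, was at -0.24 ± 0.24. Hspa2 and the mitochondrial Hspa9 (mortalin) have probes that were near background on every array, so no difference is given for them.

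Hsph1 (HSP110, an exchange factor for HSP70 that is itself a target of Hsf1) read 11.58 and 11.97 in thiamine rats 1 and 2 and 11.86 and 11.47 in untreated rats 1 and 2. These values overlap, with a difference of 0.11 ± 0.21. Hsp90ab1, the constitutive cytosolic HSP90, read 12.85 and 13.24 in thiamine rats 1 and 2, against 13.00 and 12.96 in untreated rats 1 and 2. Its difference was 0.07 ± 0.20, with an interval of -0.37 to 0.50, and the sign turned to -0.13 without thiamine rat 2. Hsp90aa1, the inducible HSP90, was not analysed here.

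The mitochondrial chaperonins Hspd1 (HSP60) and Hspe1 (HSP10), which close around unfolded matrix proteins as chamber and lid, are transcribed in opposite directions from a common promoter. Hspe1 read 13.68 and 13.65 in thiamine rats 1 and 2, against 13.31 and 13.65 in untreated rats 1 and 2, a difference of 0.19 ± 0.19. Hspd1 was at 0.04 ± 0.20, and its second probe at 0.07 ± 0.22. A further probe that the annotation gives to 2 genes, Hspe1 and Pdcd2, was at 0.17 ± 0.18 and is not named. In Hspe1 only untreated rat 1 stood lower, and without it the difference was 0.018, and in Hspd1 the groups overlap.

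Of the transcription factors, Hsf1, the master regulator of the heat shock response, read 7.29 and 7.41 in thiamine rats 1 and 2 and had spots flagged as near background in untreated rats 1 and 2 (7.09 and 7.19). It was kept through the thiamine arrays alone, so its bound of at least 1.07-fold (limma adjusted p = 0.89, 95% interval of the log2 difference -0.19 to 0.60) gives no direction. Hsf2, which acts in development and with Hsf1 under stress, was at -0.26 ± 0.18 on its brightest probe and at -0.03 ± 0.20 on another. Hsf4, known for its role in the lens, was at 0.27 ± 0.19, or 0.11 without untreated rat 1. Hsf2bp, a testis partner of Hsf2 that the rule takes with it, was near background on 3 of 4 arrays and was not kept.

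Among the 27 measured J proteins, 15 were higher and 12 lower in the thiamine livers, with a median of 0.03, and 2 (7.41%) had an unadjusted p under 0.05 (limma), both lower, against 6.75% of all kept probes in either direction and 2.94% lower. Dnajb11 (ERdj3, a partner of Hspa5 in the lumen of the endoplasmic reticulum) read 9.90 and 9.66 in thiamine rats 1 and 2, against 10.33 and 10.52 in untreated rats 1 and 2. The groups do not overlap and the difference was -0.65 ± 0.19 (interval -1.06 to -0.23, limma adjusted p = 0.39). Its second probe, however, was at -0.15 ± 0.19 with overlapping groups. Dnajc15, a J protein of the inner mitochondrial membrane that assists protein import, read 10.49 and 10.41 in thiamine rats 1 and 2 and 10.80 and 10.99 in untreated rats 1 and 2. Its difference was -0.44 ± 0.18 (limma adjusted p = 0.67), again without overlap.

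The luminal J protein Dnajc3 (p58IPK) gave conflicting probes, at 0.04 ± 0.22 on the brightest and at -0.40 ± 0.19 on the other. Beside these stand the endoplasmic reticulum chaperones that the rule leaves out: Hspa5 (BiP) was at -0.56 ± 0.19 and Dnajb9 (ERdj4) at -0.25 ± 0.18, both without overlap and neither past the test. Dnajb12 and Dnajb14, J proteins anchored in the membrane of the endoplasmic reticulum with their J domain in the cytosol, were at 0.03 ± 0.21 and -0.31 ± 0.18 on their brightest probes. A second probe of Dnajb14 was at -0.13 ± 0.19 with overlapping groups. Further probes of Dnajb12 were at 0.12 ± 0.20 and 0.18 ± 0.20. Dnajc1 and Dnajc25, also membrane J proteins, were at 0.12 ± 0.22 and 0.22 ± 0.18.

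Cytosolic J proteins that serve HSP70 directly were spread on both sides of 0. Dnaja2, a general co-chaperone of Hspa8, read 10.84 and 10.85 in thiamine rats 1 and 2, against 10.56 and 10.43 in untreated rats 1 and 2, a difference of 0.35 ± 0.18 (limma adjusted p = 0.80). Dnajb1 (Hsp40, the stress-induced J protein) read 10.88 and 10.84 in thiamine rats 1 and 2 and 11.00 and 10.96 in untreated rats 1 and 2. Its difference was -0.12 ± 0.18, small in size although the groups do not overlap, and opposite in sign to Hspb1 and to the probe of Hspa1b and Hspa1a. Dnaja4 (-0.03 ± 0.21), Dnajb2 (0.03 ± 0.18), Dnajb4 (0.05 ± 0.18) and Dnajb6 (0.08 ± 0.19), which keeps proteins from aggregating, lay near 0 on their brightest probes, while a second probe of Dnajb6 of nearly the same brightness was at 0.32 ± 0.22.

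Other J proteins have dedicated tasks. Dnajc12, a co-chaperone of phenylalanine hydroxylase and related enzymes, read 8.74 and 9.93 in thiamine rats 1 and 2 and 8.72 and 9.12 in untreated rats 1 and 2. That gap between the thiamine rats, 1.19, was the widest of the 46 genes, and the difference of 0.42 ± 0.32 became 1.01 when only thiamine rat 2 stood for its group, and -0.18 when only thiamine rat 1 did. Dnajc5 (cysteine string protein, on secretory vesicles) was at 0.32 ± 0.19, or 0.17 without untreated rat 1, whose spot was flagged as contaminated. Dnajc2, which sits at the ribosome exit, was at -0.38 ± 0.22, or -0.11 without untreated rat 1. Dnajc4 was at -0.21 ± 0.19 and Dnajc7, which passes clients between HSP70 and HSP90, at 0.17 ± 0.20. The factors of ribosome assembly (Dnajc21, 0.17 ± 0.19), histone handling (Dnajc9, 0.11 ± 0.20), diphthamide synthesis (Dnajc24, 0.11 ± 0.20) and splicing (Dnajc8, -0.02 ± 0.19, and Dnajc17, -0.05 ± 0.18) lay within 0.25 of no difference, as did the mitochondrial Dnajc11 (0.04 ± 0.19) and Dnajc30 (-0.02 ± 0.18), the Rab-like Dnajc27 (-0.17 ± 0.19) and Dnajc22 (-0.15 ± 0.19). A second probe of Dnajc27, above background in 1 of 2 thiamine livers, was at -0.33 ± 0.23, and that of Dnajc21 was at -0.02 ± 0.18. Without 1 rat, Dnajc4 was at -0.069 (untreated rat 1 left out), Dnajc22 at -0.012 (thiamine rat 2 left out) and Dnajc27 at -0.028 (thiamine rat 1 left out). Dnajb3, Dnajb5, Dnajb13, Dnajc16, Dnajc18 and Dnajc28 were not kept.

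**Figure D2:**
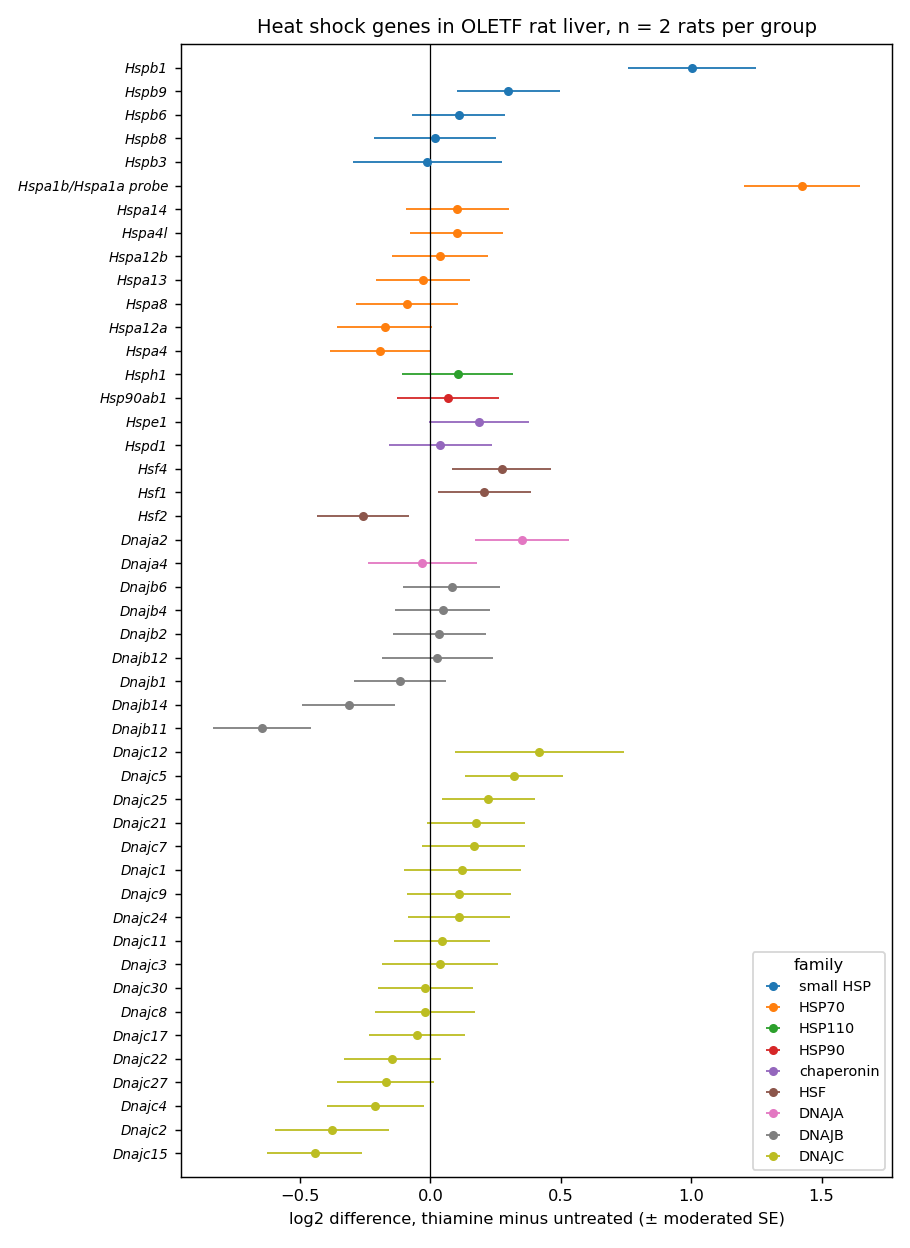
Log2 difference, thiamine minus untreated (x axis), of the 46 heat shock genes and of the probe annotated with both Hspa1b and Hspa1a, with bars of 1 moderated SE (n = 2 rats per group), coloured by family and sorted within it. Hspb1 at 1.003 and the Hspa1b/Hspa1a probe at 1.43 lie to the right of all others, which run from -0.65 for Dnajb11 to 0.42 for Dnajc12. The Hspa1b/Hspa1a probe was kept through the thiamine arrays alone.

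Across the 46 genes, 28 were higher and 18 lower in the thiamine livers and the median difference was 0.04, beside 0.005 over the 8784 named genes that were kept. An unadjusted p under 0.05 (limma) was reached by 3 of the 46, 1 higher and 2 lower, or 6.52%, against a background of 6.75% of all kept probes (3.81% higher and 2.94% lower). Groups did not overlap for 18 of the 46, 10 higher and 8 lower, or 39.1%, against 36.1% of all kept probes (17.8% higher and 18.3% lower). Both shares are close to the background, so neither count is a result about the heat shock genes as a list. Only 2 of the 46, Hspb1 and Dnajb11, differed by more than 0.5, and 35 differed by less than 0.25. Leaving out Hspb1 gave a median of 0.04 over the other 45, whose median absolute difference was 0.11. The filter on dim probes left out 11 of the 57 genes with a probe of their own, and without it the median over the 57 was 0.04. Of the 46 kept, 44 were above background on all 4 arrays.

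Set against the other heat shock genes of the same array, Hspb1 exceeded the median of those 45 by 1.92 and 2.71 in thiamine rats 1 and 2 and by 1.39 and 1.21 in untreated rats 1 and 2. That median was 9.90 and 9.85 in thiamine rats 1 and 2, and 9.95 and 9.82 in untreated rats 1 and 2. It varied far less between arrays than Hspb1 did, so subtracting it could not undo the order of the groups. The contrast therefore repeats the values of Hspb1 and is no separate test of them. It is read between rats only, since levels of different probes cannot be compared. No array was uniformly high or low: thiamine rats 1 and 2 held the highest value of 9 and 14 of the 46 genes, and untreated rats 1 and 2 that of 16 and 7. The lowest value was held by thiamine rats 1 and 2 in 8 and 11 genes, and by untreated rats 1 and 2 in 16 and 11. Untreated rat 1 was thus most often at either extreme. The median gap was 0.24 between the untreated rats and 0.13 between the thiamine rats. The order seen in Hspb1 and in the probe of Hspa1b and Hspa1a (thiamine rat 2, thiamine rat 1, untreated rat 1, untreated rat 2) was shared by Dnaja2 alone among the other 45.

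The promoters of several other members also carry cores of heat shock elements, and stretches of Hspa8, Hsph1, Hspe1 and Dnajb1 are printed. Each begins and ends up to 12 bases from its matches, reads along the strand of its gene, and has the cores in capitals (GRCr8, RefSeq). The lines are Hspa8 at chr8:50080289-50080325 and at chr8:50080447-50080483, Hsph1 at chr12:10427251-10427282 and at chr12:10427320-10427356, and Hspe1 at chr9:64084250-64084291, all on the plus strand, and Dnajb1 at chr19:41431142-41431164 on the minus strand.

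Hspa8, distal: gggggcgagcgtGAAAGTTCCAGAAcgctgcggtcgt

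Hspa8, proximal: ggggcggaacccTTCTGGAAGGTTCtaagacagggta

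Hsph1, distal: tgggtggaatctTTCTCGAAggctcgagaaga

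Hsph1, proximal: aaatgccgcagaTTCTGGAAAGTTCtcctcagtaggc

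Hspe1: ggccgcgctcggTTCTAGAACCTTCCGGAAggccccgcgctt

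Dnajb1: tcgggaggggcgGAAGGTTCtgg

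In both Hspa8 stretches, in the proximal Hsph1 stretch and in Hspe1 the cores run into each other, so that neighbouring matches overlap by their GAA or TTC, and the element of Hspe1 is also found, on the opposite strand, in the window of Hspd1. In Hspb1 the cores stand apart, and the distal Hsph1 core stands alone. Of the 46 genes, 34 had a RefSeq window of 250 bases before to 50 after the start, and 11 of these (32.4%) held at least 1 match, against 15.4% of the 27457 windows in the table. At least 2 matches were held by 7 (20.6%), against 2.12% of all windows. Among the HSP and Hsf genes it was 8 of 16, and among the J proteins 3 of 18. The 8 HSP and Hsf genes with a match had a median difference of 0.10, with 7 of 8 higher in the thiamine livers, and the 8 without had a median of 0.01, with 4 of 8 higher. The 8 with a match include Hspb1 itself, and Hspd1 and Hspe1 share their element. Among them, the signs of Hspa8, Hsph1, Hspd1 and Hspb8 turned with 1 rat left out. Among the J proteins the order was the opposite, with a median of -0.12 and 1 of 3 higher with a match, and a median of 0.03 and 9 of 15 higher without. Over all 34 genes the medians were 0.08 with a match (8 of 11 higher) and 0.03 without (13 of 23 higher). A match is a description of letters, and its part in any difference was not tested. Hspa8 and Dnajb1 held 4 and 2 matches (1 of the 2 in Dnajb1 after the start and not printed). The window of Hspa1a held no match, and bases outside the window were not searched. No window of Hspa1b was searched.

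Lists of the co-chaperones that work with these proteins had medians from -0.05 to 0.22. Of 15 measured co-chaperones of HSP90, 7 lay above 0 and 8 below it, the median being -0.02, and 0 had an unadjusted p under 0.05 (limma), against 6.75% of all kept probes, a background that holds for each partner list. The smallest p values in this list belonged to Cacybp at 0.39 ± 0.21, Ppid, a cyclophilin, at 0.33 ± 0.22 and Cdc37, which brings kinases to HSP90, at -0.19 ± 0.19. Cacybp came to 0.11 without thiamine rat 2, and Ppid and Cdc37 to 0.044 and -0.033 without untreated rat 1. Of 11 exchange and partner factors of HSP70, 8 lay above 0 and 3 below it, the median being 0.22, and 1 in each direction had an unadjusted p under 0.05 (limma). These were Bag5 at 0.54 ± 0.21, or 0.27 without untreated rat 1, and Bag6, which handles tail-anchored and mislocalised proteins, at -0.49 ± 0.18. Grpel1, the exchange factor of mitochondrial HSP70, was at 0.35 ± 0.21, or 0.10 without untreated rat 1.

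Of 10 measured subunits of the cytosolic chaperonin TRiC and of prefoldin, which hands it nascent actin and tubulin, 3 lay above 0 and 7 below it, the median being -0.05. Pfdn2 at 0.41 ± 0.18 was the member with an unadjusted p under 0.05 (limma), followed by Pfdn5 at 0.30 ± 0.18 and Pfdn1 at -0.24 ± 0.23. Mitochondrial proteases and chaperones counted 5 higher and 5 lower of 10, with a median of -0.003. The unfoldase Clpx had a difference of -0.62 ± 0.24, which came to -0.26 against untreated rat 1 alone and to -0.98 against untreated rat 2 alone. Timm44, of the import motor, was at -0.26 ± 0.18 and the protease Yme1l1 at 0.18 ± 0.18. Hsbp1, which binds and restrains Hsf1, was at 0.01 ± 0.18. None of these genes passed the test over all probes.

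**Figure D3:**
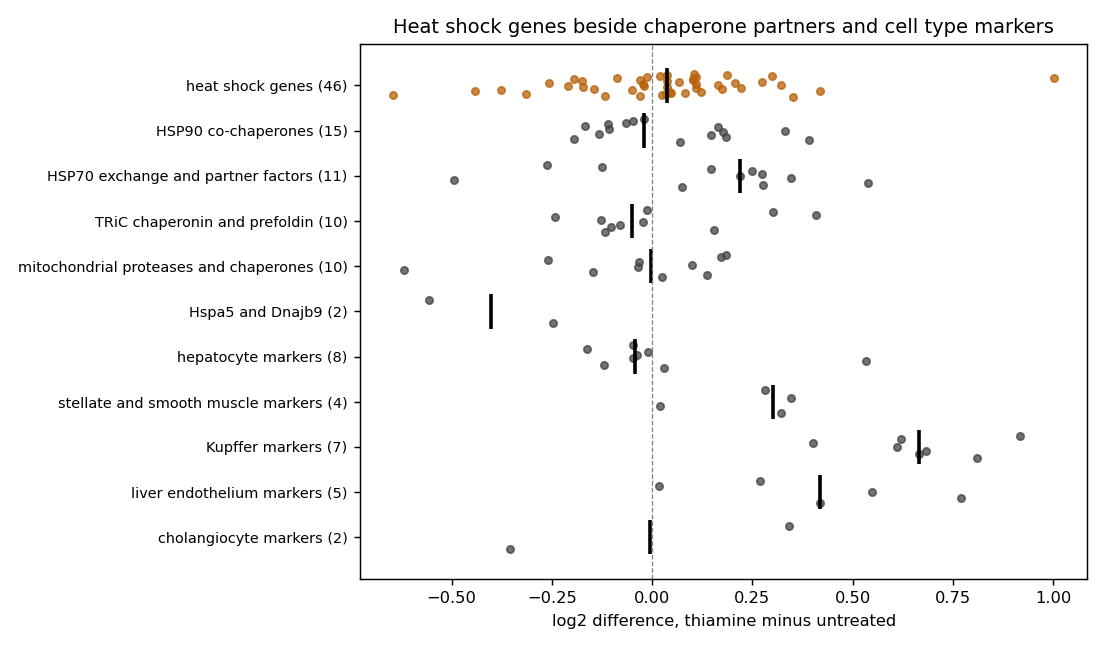
Log2 differences, thiamine minus untreated (x axis), of the kept genes of each list (points, number of genes in parentheses), with a bar at the list's median. Heat shock genes centre on 0.04 with Hspb1 at 1.003 on the right, and the Kupffer markers all lie to the right of 0 with a median of 0.67. The 4 stellate and smooth muscle markers were above background on both thiamine arrays, but only 2 of them on both untreated arrays, so their bar is not read.

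Markers of Kupffer cells and of the liver endothelium were also higher in the thiamine livers, none of them past the test over all probes. The 8 hepatocyte markers were above background on all 4 arrays, with a median difference of -0.04, 2 higher and 6 lower. Of these, 1 had an unadjusted p under 0.05 (limma), Cps1 at 0.53 ± 0.18. The 7 Kupffer cell markers with a probe, of 8 listed, were all higher in the thiamine livers, 6 of them at an unadjusted p under 0.05 (limma), against 6.75% of all kept probes. Groups did not overlap for 5 of the 7, against 36.1% of all kept probes, and overlapped for Clec4f and Cd68. Their summed intensity was 25230 and 17770 in thiamine rats 1 and 2, against 16772 and 10810 in untreated rats 1 and 2. Thiamine rat 1 had the highest sum for these markers. For the liver endothelium, 5 of 8 markers had a probe, all 5 were higher, 2 of them at an unadjusted p under 0.05 (limma), and the sums were 5041 and 4531 against 3511 and 3363 in the same order of rats. Groups overlapped for Stab1 (0.02 ± 0.21) and Stab2 (0.27 ± 0.27).

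Stellate and smooth muscle cells, which are rich in Hspb1, had probes for 7 of 8 markers. Of these, 4 were above background on both thiamine arrays but 2 on both untreated arrays, so no median is given for them. Acta2, Cnn1 and Lrat were near background on all 4 arrays, and the sums were 1455 and 1381 in thiamine rats 1 and 2 against 1268 and 1223 in untreated rats 1 and 2. Cholangiocyte markers gave sums of 1030 and 1045 in thiamine rats 1 and 2 and 1400 and 991 in untreated rats 1 and 2, with Sox9 near background on all 4 arrays. The part of any of these cells in the values of Hspb1 or of the shared probe was not tested, and in whole liver RNA more cells of a type and more RNA per cell cannot be told apart.

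**Figure D4:**
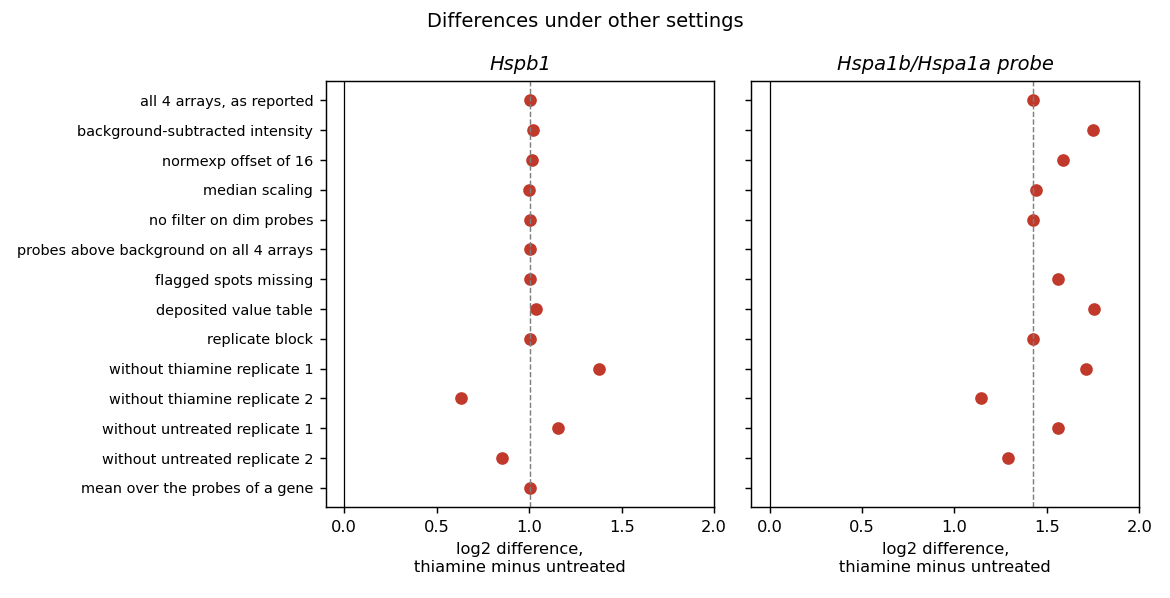
Log2 difference, thiamine minus untreated (x axis), of Hspb1 (left) and of the Hspa1b/Hspa1a probe (right) with all 4 arrays as reported (dashed line) and under each other setting (rows). Hspb1 runs from 0.63 to 1.38 and the shared probe from 1.14 to 1.75, and both ends of the range of Hspb1 come from leaving out a thiamine rat; the shared probe has no point for 2 settings that do not include it.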

How the data were processed

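Per the file headers, the authors scanned with CodeLink Expression Analysis (version 5.0.0.31312), whose reports hold linear intensity values for spot mean and local background. The deposited value table holds intensity values that keep the order of the scanner values, with column medians near 147.5, and their normalization is not stated in the labels. Background was corrected with normexp (offset 50), the 1280 control features were left out and log2 values of 33849 gene probes were quantile normalized. In thiamine rats 1 and 2, 19075 and 20071 gene probes were above background, against 18176 and 18392 in untreated rats 1 and 2. Each array lay on its own slide. The test was limma's (version 3.58.1, under R 4.3.3; two-sided, 2 residual degrees of freedom, 10.8 after moderation), and the fit was tested on simulated data. A gene is its brightest kept probe. A bound of at least N-fold divides the bright group's mean by the dim group's, where each dim array counts at its lowest above-background signal or at the probe's own value, whichever is higher. Genes outside the rule carry current GRCr8 symbols, matched by gene identifier. Of 97 listed partner and marker genes, 14 lacked a probe by name and are left out. Arrays of a group are separate rats, and which of them shared a cage is not known here. Alternatives changed the background correction, offset, scaling, dim-probe filter, flagged spots, value table, replicate block and rat left out. The named genes are Hspb1, the 14 other members with the smallest p, all measured members outside the J proteins, the remaining J proteins by difference, and up to 3 per partner list. Members and lists were chosen with earlier results of these data known.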

Additional observations from a re-analysis of the deposited data

How the results depend on the processing

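With 2 rats per group, 1 animal limits every value. Hspb1 stayed higher in the thiamine livers under all 13 alternatives, with an adjusted p of limma from 0.027 to 0.9997, and ran from 0.63 to 1.38 when 1 rat was left out. Nothing in the labels says that the replicate numbers mark a shared cage or day (r between same-numbered deviations -0.074). With them as a replicate block, which leaves 1 residual degree of freedom, 126 probes passed, Hspb1 among them (1.003, limma adjusted p = 0.027). The shared probe of Hspa1b and Hspa1a also fell under the threshold (1.43, limma adjusted p = 0.00047). It was kept through the thiamine arrays alone, so this p does not support a difference. With all 4 arrays, 1 probe passed with background-subtracted intensity and 1 with the deposited value table, and 1 to 65 with a rat left out (1 for thiamine rat 1, 7 for thiamine rat 2, 65 for untreated rat 1 and 11 for untreated rat 2), a fit that gives the remaining rat the spread of the opposite group. The number of heat shock genes at an unadjusted p under 0.05 (limma), 3 of 46, ranged from 1, with thiamine rat 2 left out, to 5, with untreated rat 2 left out, and was otherwise 2 or 3. The median of 0.04 stayed between 0.0086 and 0.076. Signs of small differences turned: with median scaling Hspa13 (0.00082), Dnajc8 (0.014) and Dnajc30 (0.017), with flagged spots missing Dnajc30 (0.046), and with the mean over the probes of a gene Hspa13 (0.017) and Dnajc3 (-0.18). Leaving out 1 rat gave ranges across 0 for Dnajc12 (-0.18 to 1.01), Dnajc7 (-0.021 to 0.35), Dnajc24 (-0.087 to 0.31), Dnajc9 (-0.11 to 0.33), Dnajc1 (-0.15 to 0.39), Hspa14 (-0.088 to 0.29), Hsph1 (-0.090 to 0.30), Hspa8 (-0.26 to 0.086), Dnajb6 (-0.054 to 0.22), Hsp90ab1 (-0.13 to 0.26), Dnajc17 (-0.16 to 0.055), Dnajb4 (-0.026 to 0.12), Dnajc11 (-0.081 to 0.17), Hspa12b (-0.070 to 0.14), Hspd1 (-0.12 to 0.19), Dnajb2 (-0.023 to 0.090), Dnajc3 (-0.27 to 0.34), Hspa13 (-0.090 to 0.032), Dnaja4 (-0.23 to 0.17), Dnajb12 (-0.18 to 0.23), Dnajc8 (-0.17 to 0.12), Dnajc30 (-0.12 to 0.078), Hspb8 (-0.34 to 0.37), Hspb3 (-0.46 to 0.43), Pfdn1 (-0.58 to 0.098), Hsbp1 (-0.067 to 0.091), Myh11 (-0.017 to 0.66) and Epcam (-0.81 to 0.099). Beyond the rat left out, the cause was not tested.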
